A study of Homo sapiens with 4 samples.

Results

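The mRNAs of 10 mucin genes, chosen by symbol among the 60558 gene identifiers of each library, were compared between myr-AKT1 and vector cells of the LAD lines A549 and HCC827. The 10 genes comprise 3 secreted mucins (MUC2, MUC5AC and MUC5B) and 7 membrane mucins (MUC1, MUC4, MUC13, MUC15, MUC16, MUC20 and MUC21). These genes and the gene lists below were chosen with earlier results of these data known. Both lines are established human lines from lung adenocarcinoma, and the control cells carried the empty vector. Myr-AKT1 is an AKT1 with a myristoylation signal, which anchors the kinase at the membrane and keeps it active. Each condition had 1 library, which leaves differences within a line without a replicate check, and whether the transduced cells were a pool or a clone is not given in the sources used here.

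Mucins are large glycoproteins of epithelial surfaces whose serine-, threonine- and proline-rich repeats carry dense O-linked glycans. Secreted mucins form the mucus gel. MUC5AC and MUC5B are the main gel-forming mucins of the airways, and MUC2 is that of the intestine. Membrane mucins stand on the cell surface as part of the glycocalyx, and several carry a cytoplasmic tail that takes part in signaling. MUC16 is the antigen known as CA125, and MUC1 and MUC4 are known for their association with receptors of the ERBB family.

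Deposited values, called normalized counts here, are reads scaled by the size factor of their library, and the reads were recovered from them. The libraries held 16322183 to 33530317 reads in genes. Log2 fold changes compare the normalized count of myr-AKT1 cells with that of vector cells of the same line, and intervals are 95% Clopper-Pearson intervals that cover counting error only. For AKT1 itself the log2 fold change was 1.14 in HCC827 and 0.57 in A549, in the direction of the labels. EGFR had 193419 reads in HCC827-vector and 8588 in A549-vector. Each of 5 epithelial markers had reads in all 4 libraries. Their sum was lower with myr-AKT1, at 4951 against 5875 RPM (reads scaled to the library total) in A549 and 3720 against 6830 in HCC827. KRT8 and KRT18, which supplied most of these reads in A549, had log2 fold changes of -0.36 and -0.38 there and -1.81 and -1.75 in HCC827. KRT19 had 2.65 and -0.75, CDH1 1.39 and 0.31, and EPCAM 0.59 and -0.22. Of 5 leukocyte markers 3 had reads in each library, with CD3E at 0 throughout and sums of 4.49 against 1.52 RPM in A549 and 3.06 against 2.89 in HCC827. ITGAM supplied 105 against 48 of these reads in A549. The 5 fibroblast markers summed to 40.3 RPM in A549-myr-AKT1 (5 with reads) against 3.82 in A549-vector (4, DCN at 0), and to 9.19 (5) against 2.42 (4, COL3A1 at 0) in HCC827. In A549-myr-AKT1 COL1A1 and LUM supplied 668 and 304 of the 1014 reads. The 5 endothelial markers summed to 4.96 RPM (3, VWF and KDR at 0) against 0.537 (5) in A549 and to 9.86 (4, TEK at 0) against 3.81 (5) in HCC827. With myr-AKT1 the fibroblast and endothelial sums were thus higher and the epithelial sum lower in both lines, where most mucin values below were higher. The leukocyte sum was higher in A549 but near equal in HCC827, from 50 against 79 reads. Of these, CSF1R supplied 46 against 72 (log2 fold change 0.02, interval -0.55 to 0.57). The part of the marker sums in the results was not tested.

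In both lines MUC1, MUC13, MUC20 and MUC5B were more than 2-fold higher in myr-AKT1 cells. MUC16 was higher in both lines but past 2-fold only in HCC827, and MUC4 and MUC21 had enough reads only in HCC827, where they were more than 2-fold higher. For MUC20 in A549 and MUC21 in HCC827 few reads were counted, and the intervals reach below 2-fold (log2 0.43 to 2.31 and 0.20 to 2.27). MUC5AC was the exception, being higher in A549-myr-AKT1 cells and lower in HCC827-myr-AKT1 cells. MUC2 and MUC15 were at or near 0 reads throughout. In bulk RNA, a change in the share of cells that express a gene and a change in RNA per cell cannot be told apart.

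Of the 7 membrane mucins, 4 had at least 20 reads summed over the A549 pair, of which 3 were past a log2 fold change of 1 upward and 0 downward. In HCC827 cells 6 of the 7 had enough reads, and all 6 were past this threshold upward and 0 downward. Of the 3 secreted mucins, 2 had enough reads in each line. In A549 cells 1 of these was past the threshold upward and 0 downward, and in HCC827 cells 1 was past it in each direction. In A549 cells 2 mucin genes were past a log2 fold change of 2 upward (MUC1 and MUC13), against 5.56% of all genes, and in HCC827 cells 3 were (MUC1, MUC13 and MUC20), against 4.27%. MUC13 and MUC4 lay so close to 2 in HCC827 cells that their side of it depended on the scaling. Over all genes with at least 20 reads in the pair, 14.7% were past the threshold of 1 upward and 10.2% downward in A549 cells, and 13.5% and 13.1% in HCC827 cells. Of the 6 mucin genes with enough reads in both lines, 4 were past it upward in both, against 4.4% of all such genes. The median log2 fold change of the mucin genes with enough reads was 1.60 in A549 cells (6 genes) and 1.59 in HCC827 cells (8 genes), and the medians over all genes were -0.04 and -0.05. Genes of low level pass this filter through the library in which they are high, which applies most to MUC20 in A549 and MUC21 in HCC827.

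RefSeq promoter records matched 5 of the 10 genes by symbol (MUC1, MUC2, MUC4, MUC13 and MUC16). Sequence is shown for the 4 membrane mucins among them, since these were all more than 2-fold higher in HCC827 cells, and MUC1 and MUC13 in both lines. Each sequence is the stretch of up to 250 bases before a RefSeq start on GRCh38.p14, 5′ to 3′ on the strand of the gene, less the bases that GENCODE places in an exon. MUC1 lies on the minus strand (chr1:155192917-155193165), as do MUC4 (chr3:195811974-195812179), MUC13 (chr3:124934752-124935001) and MUC16 (chr19:9010410-9010659). The MUC13 stretch lies within the gene as GENCODE draws it, outside its exons. MUC1 and MUC16 each had a second RefSeq start. Capitals mark matches to any of 6 motifs on either strand.
MUC1: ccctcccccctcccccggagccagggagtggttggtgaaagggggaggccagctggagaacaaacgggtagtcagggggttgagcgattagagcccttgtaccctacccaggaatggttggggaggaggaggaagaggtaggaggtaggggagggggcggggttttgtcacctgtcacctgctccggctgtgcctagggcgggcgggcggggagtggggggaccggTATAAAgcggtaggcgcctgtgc
MUC4: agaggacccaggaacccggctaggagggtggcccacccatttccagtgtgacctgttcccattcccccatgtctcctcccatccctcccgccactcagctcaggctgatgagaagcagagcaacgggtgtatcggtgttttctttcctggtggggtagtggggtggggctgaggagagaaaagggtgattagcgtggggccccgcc
MUC13: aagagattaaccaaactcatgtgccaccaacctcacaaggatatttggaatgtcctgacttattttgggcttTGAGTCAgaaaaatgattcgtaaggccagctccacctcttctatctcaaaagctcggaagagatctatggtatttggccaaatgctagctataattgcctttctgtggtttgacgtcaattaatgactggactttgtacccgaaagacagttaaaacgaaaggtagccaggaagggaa
MUC16: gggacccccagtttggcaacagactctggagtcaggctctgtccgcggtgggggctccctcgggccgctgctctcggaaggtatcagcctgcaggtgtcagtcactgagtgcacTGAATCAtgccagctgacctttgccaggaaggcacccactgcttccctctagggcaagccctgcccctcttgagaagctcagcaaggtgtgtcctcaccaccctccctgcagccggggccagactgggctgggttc

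The motifs were TTCNNNGAA for STAT factors, TGTTTAC for forkhead factors, TGANTCA for AP-1, ACGTG for hypoxia-inducible factors, the NF-κB motif by name and the TATA box TATAAA. MUC1 held the TATA letters 24 to 19 bases before the start shown, which is 30 to 25 bases before its other start. MUC13 held TGAGTCA from 178 to 172 bases and MUC16 held TGAATCA from 136 to 130 bases before the start shown. The window of the other MUC16 start (chr19:9065752-9066001) held no match, and that of MUC2 held TGAATCA from 151 to 145 bases before the start. MUC4 held TTCGGAGAA 11 to 3 bases before the RefSeq start, within the 44 bases not printed because GENCODE places them in an exon. Over 35116 RefSeq windows of 250 bases, 6.57% held the STAT letters, 2.98% the forkhead letters, 6.57% the AP-1 letters, 18.5% the hypoxia letters, 1.73% the NF-κB letters and 10.7% the TATA letters. A match describes the letters only, and no binding was measured here.

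Levels were compared between genes as RPKM, the recovered reads scaled to annotated exon length and library total. The order of the mucins differed between the lines. In A549-vector cells MUC13 was highest at 12.0 RPKM, followed by MUC5B at 4.48 and MUC5AC at 0.762. MUC1 (0.273 RPKM) and MUC16 (0.169) came next with overlapping intervals, and MUC20 had 0.0698. In A549-myr-AKT1 cells MUC13 stood at 51.8 RPKM, MUC5B at 16.5, MUC1 at 1.77, MUC5AC at 1.37, MUC16 at 0.271 and MUC20 at 0.180, the last pair with overlapping intervals. MUC1 thus stood above MUC5AC there, although their intervals (1.45 to 2.14 and 1.26 to 1.48) overlap.

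In HCC827-vector cells MUC16 was highest at 13.4 RPKM. MUC5B (7.04 RPKM), MUC13 (6.49) and MUC1 (5.89) followed, and each overlapped its neighbor in the order. MUC4 was at 1.04, MUC5AC at 0.579, MUC20 at 0.444 and MUC21 at 0.145 RPKM, with overlapping intervals for MUC5AC and MUC20. In HCC827-myr-AKT1 cells MUC1 (33.1 RPKM, interval 31.3 to 34.9) and MUC16 (32.2, 31.8 to 32.6) shared the top within counting error. MUC13 was at 27.6, MUC5B at 15.6, MUC4 at 4.28 and MUC20 at 2.13 RPKM. MUC21 (0.355) and MUC5AC (0.274) were lowest of those with reads, and their intervals overlap.

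MUC1, a membrane mucin whose cytoplasmic tail signals in carcinoma cells, is on chromosome 1 from 155185824 to 155192916 in GRCh38 (ENSG00000185499). Normalized counts in A549 were 123 (107 reads) under myr-AKT1 and 19.2 under vector (22 reads), and in HCC827 1631 (1296 reads) and 307 (386 reads). In log2 terms MUC1 was higher by 2.67 in A549 (interval 2.0 to 3.41) and by 2.41 in HCC827 (2.25 to 2.58). MUC1 was therefore higher with myr-AKT1 in both lines, and the difference of 0.26 between the fold changes had an interval of -0.42 to 0.94 that includes 0. Exons of MUC1 overlap those of the protein-coding gene ENSG00000273088 on the same strand, so reads of shared exons are uncertain. That gene had 2 reads in HCC827-vector and 0 elsewhere.

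MUC13, a membrane mucin best known from the gut, is on chromosome 3 from 124905442 to 124953819 (ENSG00000173702). Normalized counts in A549 were 5229 under myr-AKT1 and 1225 under vector, and in HCC827 1984 and 493. Both log2 fold changes were close to each other, at 2.09 (2.01 to 2.18) in A549 and 2.01 (1.87 to 2.15) in HCC827. The difference between them was 0.08, with an interval of -0.08 to 0.24.

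MUC16, the largest of these genes with 44.2 kb of annotated exon, is on chromosome 19 from 8848844 to 9010390 (ENSG00000181143). Normalized counts in HCC827 were 29199 under myr-AKT1 and 12870 under vector, and in A549 345 and 218. Both myr-AKT1 libraries were higher, with log2 fold changes of 0.66 (0.41 to 0.91) in A549 and 1.18 (1.15 to 1.21) in HCC827. By counting error the A549 fold change was the smaller, by 0.52 on the log2 scale (A549 minus HCC827 -0.52, interval -0.77 to -0.28).

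MUC4 is on chromosome 3 from 195746765 to 195811973 (ENSG00000145113). A membrane mucin with EGF-like domains, it stood at 1848 normalized counts in HCC827-myr-AKT1 against 474 in HCC827-vector, a log2 fold change of 1.96 (1.83 to 2.10). In A549 cells it had 0 reads with myr-AKT1 and 3 with vector, both within the limit of 3 reads that a count of 0 allows, so no fold is given.

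MUC20, whose product is known to bind the MET receptor, is the gene next to MUC4, on chromosome 3 from 195720884 to 195741123 (ENSG00000176945). Normalized counts in A549 were 35.5 (31 reads) under myr-AKT1 and 14 under vector (16 reads), and in HCC827 299 and 66.0. The log2 fold changes were 1.35 (0.43 to 2.31) and 2.18 (1.82 to 2.56), and their difference of -0.84 (A549 minus HCC827) had an interval of -1.78 to 0.10. The reads of MUC20 are uncertain, because its exons overlap those of the lncRNA MUC20-OT1 on the same strand and MUC20P1 is a pseudogene copy. MUC20P1 had log2 fold changes of 0.95 (0.00099 to 1.93) and 2.49 (1.84 to 3.20), and MUC20-OT1 had 0.19 and 0.54.

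MUC21, also called epiglycanin, is on chromosome 6 from 30983718 to 30989903 (ENSG00000204544). It had 0 reads in both A549 libraries, and 22 reads in HCC827-myr-AKT1 against 15 in HCC827-vector. The log2 fold change in HCC827 cells was 1.22, with a wide interval of 0.20 to 2.27. MUC15 (ENSG00000169550, chromosome 11, 26559032 to 26572263) had 0 reads in all 4 libraries, which allows up to 0.0249 to 0.0512 RPKM. Its exons overlap those of ANO3 on the other strand, which had 22 against 4 reads in A549 cells and 0 in HCC827 cells.

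MUC5B (ENSG00000117983, chromosome 11, 1223066 to 1262172) was the secreted mucin with most reads in every library. Normalized counts in A549 were 8842 under myr-AKT1 and 2437 under vector, and in HCC827 5972 and 2840. Both pairs were higher with myr-AKT1, with log2 fold changes of 1.86 (1.80 to 1.92) in A549 and 1.07 (1.01 to 1.14) in HCC827, a difference of 0.79 (0.70 to 0.88) by counting error. Its antisense gene MUC5B-AS1 had 0 or 1 reads in each library, and the overlapping microRNA gene MIR6744 had 0.

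MUC5AC (ENSG00000215182, chromosome 11, 1157953 to 1201138) lies beside MUC5B on the same strand, 21928 bases away. It had 688 normalized counts in A549-myr-AKT1 and 389 in A549-vector, but 98.1 in HCC827-myr-AKT1 against 219 in HCC827-vector. MUC5AC thus had log2 fold changes of 0.82 (0.64 to 1.0) in A549 and -1.16 (-1.54 to -0.79) in HCC827. The fold changes of the lines differed by 1.98 (1.58 to 2.38) by counting error, and MUC5AC and MUC5B went in opposite directions in HCC827 cells. MUC2 (ENSG00000198788, chromosome 11, 1074875 to 1110511) had 5 reads in A549-myr-AKT1 and 0 in the other libraries. Against a floor of 3 reads in A549-vector this is 2.19-fold, and the lower counting limit was a log2 fold change of 0.265. With so few reads MUC2 was not counted.

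**Figure D1:**
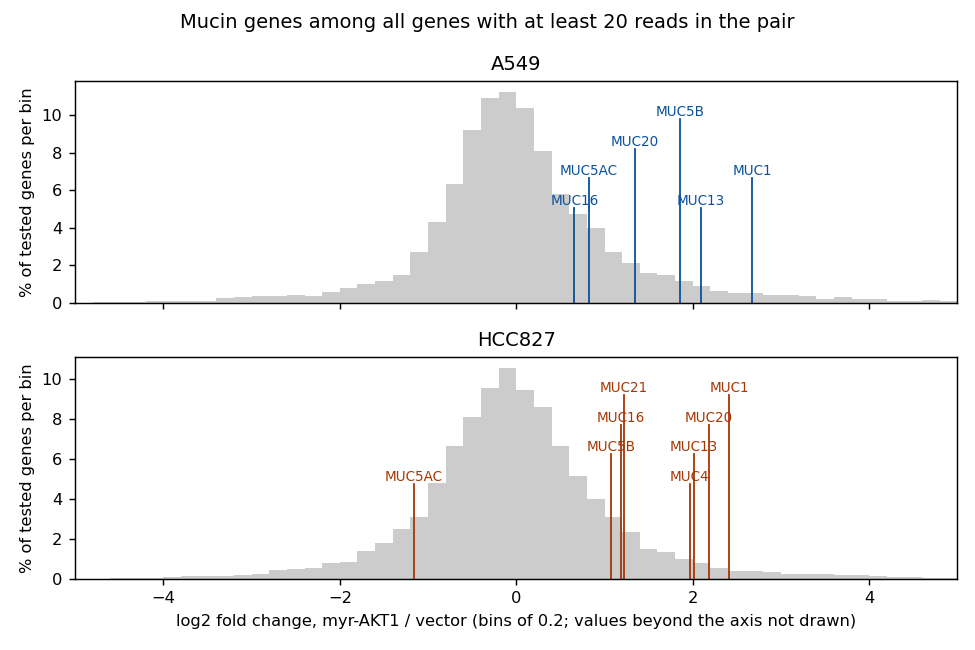
Percent of all genes with at least 20 reads in the pair, in bins of 0.2 of log2 fold change (gray bars), with the mucin genes that passed this filter as labeled lines. In A549 the 6 mucins lie between 0.66 and 2.67, and in HCC827 the other 7 lie between 1.07 and 2.41 while MUC5AC lies at -1.16.

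The only replication of the comparison is that of the cell lines, so limma was run over all 4 libraries, on the log2 of the normalized count plus 1, and the cell line was its block. In this fit MUC1, MUC13 and MUC5B rose. MUC13 rose by 2.05 in log2 terms, with a standard error of 0.250 and an adjusted p of 0.0107 (limma), and was higher in 2 of 2 lines. MUC1 had 2.51 (standard error 0.414, adjusted p = 0.0270 from limma) and MUC5B 1.47 (standard error 0.275, adjusted p = 0.0366 from limma), each higher in 2 of 2 lines. These are 3 of the 8 mucin genes fitted. By limma, edgeR and DESeq2 alike 0 were called lower, also at an unadjusted p under 0.05, where 5 were higher by limma. No share over all genes was computed for an unadjusted p, here or for the lists below. Of the 19314 genes fitted 1.29% were called higher and 1.73% lower. MUC16 and MUC20 were higher in 2 of 2 lines without passing (adjusted p = 0.114 and 0.173 from limma), with log2 fold changes of 0.92 and 1.73. MUC4, MUC21 and MUC5AC had adjusted p of 0.986, 0.729 and 0.907 from limma. The fit had 1 residual degree of freedom. In the quasi-likelihood test of edgeR the call of MUC5B was lost (adjusted p = 0.0516), and all 3 calls were lost in limma with a pseudocount of 0.1 (adjusted p = 0.0669 to 0.123) or without the block (0.999999 each), settings under which 0 of all 19314 genes were called.

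Protein-coding genes within 100 kb of a mucin gene did not all share its direction. At the chromosome 11 cluster TOLLIP had log2 fold changes of 0.38 in A549 and 0.36 in HCC827 cells, and AP2A2 had 0.05 and 0.15. Beside MUC1, THBS3 had 0.56 and 1.16, KRTCAP2 had -0.49 and 0.19, and MTX1 had -0.68 and 0.31. Beside MUC13, ITGB5 was lower in both lines, with -0.60 and -0.74, and HEG1 was higher, with 0.97 and 1.70. Beside MUC4, TNK2 had -0.30 and 0.81, and beside MUC16, ZNF558 had 0.12 and -0.15. Near MUC21, DDR1 was more than 2-fold higher in both lines (1.31 and 1.18), VARS2 had -0.17 and -0.96, and GTF2H4 had intervals that include 0 in both lines. The neighbors MUC6 and MUC22, mucin genes too, were named outside the rule. MUC6 had 8 reads in A549-myr-AKT1 and 0 elsewhere, and MUC22 had 11 against 79 reads in HCC827 cells (log2 fold change -2.18, -3.24 to -1.26).

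Among 14 other mucin and mucin-like genes, 4 of 7 with enough reads were past the threshold upward in A549 cells and 0 downward. These were OVGP1 (1.59), MUC3A (2.51), MUC12 (1.79) and MUC19 (2.64). The rule named OVGP1 for its fold change, and the others were named after their values were seen. In HCC827 cells 1 of 6 was past it upward, OVGP1 at 1.54, and 1 downward, MUC22. Over all genes with enough reads, 14.7% were past it upward and 10.2% downward in A549 cells, and 13.5% and 13.1% in HCC827 cells. The median of this list was 1.59 in A549 and 0.05 in HCC827 cells. CD164, PODXL and MCAM, which had most reads of the list, were within 0.36 of 0 in both lines. The values were 0.27 and 0.05 for CD164, 0.02 and 0.07 for PODXL, and 0.35 and 0.05 for MCAM. In the fit over both lines limma called 0 of 9 genes of this list. At an unadjusted p under 0.05, where the share over all genes was not computed, 3 were higher and 0 lower. By edgeR 0 were called, and by DESeq2 1 of 11 with reads. Of all genes limma called 1.29% higher and 1.73% lower, and DESeq2 called 593 of 33056 higher.

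A list of 26 genes of mucous secretory cells, the cells that make and release airway mucins, was followed next. Like the other lists, it was chosen with earlier results of these data known. In A549 cells 11 of 14 with enough reads were past a log2 fold change of 1 upward and 0 downward, and in HCC827 cells 9 of 13 upward and 2 downward. The shares over all genes were 14.7% upward and 10.2% downward in A549 cells, and 13.5% and 13.1% in HCC827 cells. The median log2 fold change of the list was 2.71 in A549 and 2.31 in HCC827 cells. For AGR2, a protein disulfide isomerase needed for mucin folding, normalized counts in A549 were 22409 under myr-AKT1 and 5581 under vector, and in HCC827 11741 and 2374. Its log2 fold changes were 2.01 and 2.31. FCGBP, a mucus protein that resembles mucins, had 2.82 and 4.09. PIGR, the receptor that carries IgA to the surface, had 2.59 and 4.51, and the protease inhibitor SLPI had 2.06 and 4.22. BPIFB1, an airway secretory protein, had 262 against 9 reads in A549 cells (5.25) and 39 against 0 in HCC827 cells. Against a floor of 3 reads in HCC827-vector the latter is 20.6-fold, and the lower counting limit was a log2 fold change of 3.996.

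The fit over both lines called 5 of the 15 fitted genes of this list higher and 0 lower, against 1.29% and 1.73% of all 19314 genes. By edgeR with TMM 5 were called, by DESeq2 6 of 23 with reads, by edgeR with DESeq2 size factors 2, and by limma with a pseudocount of 0.1 or without the block 0. Over all genes the numbers called higher were 196 of 19314, 593 of 33056, 42 of 19314 and 0, in the same order. At an unadjusted p under 0.05, where the share over all genes was not computed, limma had 9 higher and 2 lower. The 5 called by limma were AGR2 (log2 fold change 2.16, adjusted p = 0.00942 from limma), FCGBP (3.45, 0.00738), SLPI (3.14, 0.0192), PIGR (3.51, 0.0231) and BPIFB1 (5.37, 0.0110). The transcription factors of the list differed among themselves. SPDEF, a factor of goblet cell differentiation, had 0.37 in A549 (0.24 to 0.50) and -0.91 in HCC827 cells (-1.24 to -0.58), and FOXA2 had 0.36 and -0.38. FOXA1 had 0.57 and 1.39, and FOXA3 had 1.28 in A549 cells with 1 and 0 reads in HCC827. CREB3L1 had 4.89 in A549 cells and too few reads in HCC827. These factors, FOXA1, FOXA3 and CREB3L1, were named after their values were seen. The trefoil factor gene TFF3 had 3 reads in A549-myr-AKT1 and 0 elsewhere, and SCGB1A1, best known from club cells, had 1 read in HCC827-myr-AKT1 and 0 elsewhere. Another trefoil factor gene, TFF1, had 251 against 2 reads in A549 cells and 1 against 0 in HCC827 cells. AGR3, a homolog of AGR2, had 3.32 and 3.44, and it and TFF1 were named after their values were seen. The 2 genes past the threshold downward in HCC827 cells were the channel genes ANO1 (-1.58) and AQP5 (-1.78), named after their values were seen.

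**Figure D2:**
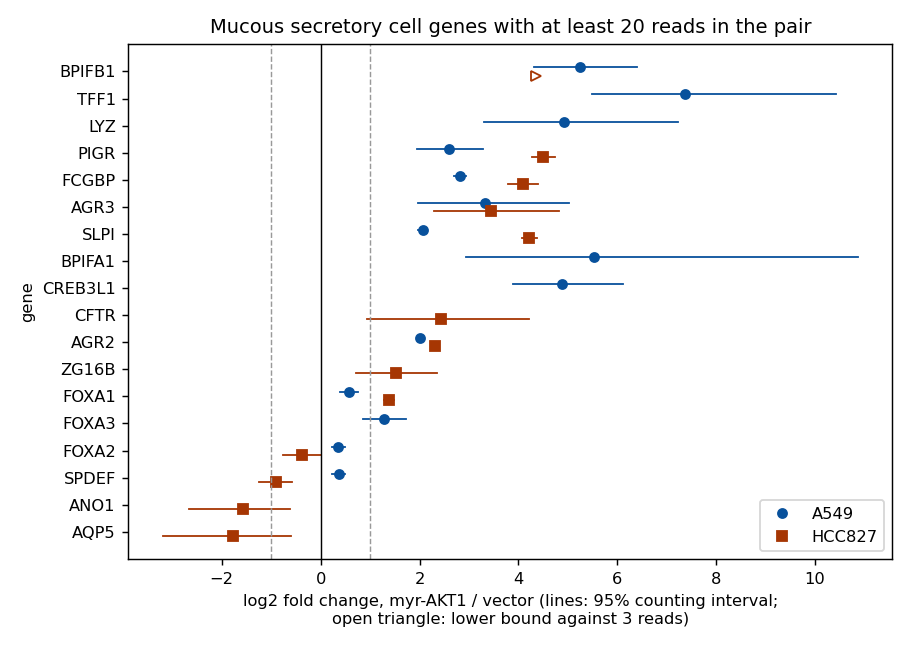
Log2 fold changes of the mucous secretory cell genes with at least 20 reads in the pair, in A549 (circles) and HCC827 (squares). Lines show the 95% counting interval, and dashed lines stand at 1 and -1. An open triangle is a bound against 3 reads in place of 0, which leaves out counting error of the other library. AGR2, SLPI, FCGBP, PIGR, AGR3 and BPIFB1 lie past 1 in both lines, and SPDEF and FOXA2 lie on opposite sides of 0.

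The GALNT family holds the enzymes that start O-linked glycosylation. Of 19 genes, 15 had enough reads in A549 cells, with 3 past the threshold upward and 0 downward, and 12 had enough in HCC827 cells, with 2 upward and 0 downward. Among all genes 14.7% were past it upward and 10.2% downward in A549 cells, and 13.5% and 13.1% in HCC827 cells. The medians of the list were 0.32 and -0.15. GALNT10, GALNT2 and GALNT1, with most reads of the list, had 0.19, -0.38 and 0.81 in A549 and -0.32, 0.00473 and -0.30 in HCC827. In the fit limma, edgeR and DESeq2 each called 0 of these genes, and limma called 1.29% of all genes higher and 1.73% lower. At an unadjusted p under 0.05, where the share over all genes was not computed, limma had 1 of 16 higher and 0 lower.

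Of 18 enzymes that extend or cap O-glycans, 4 of 13 were past the threshold upward and 1 downward in A549 cells, and 6 of 16 upward and 0 downward in HCC827 cells. Among all genes the shares were 14.7% upward and 10.2% downward in A549 cells, and 13.5% and 13.1% in HCC827 cells. The medians of the list were 0.50 and 0.58. GCNT3, the mucin-type core 2 and core 4 branching enzyme, had 6363 against 2433 normalized counts in A549 cells and 804 against 269 in HCC827 cells, with log2 fold changes of 1.39 and 1.58. It was the 1 gene of 17 fitted that limma called, at 1.48 (adjusted p = 0.0293 from limma), against 1.29% of all genes called higher. In edgeR with DESeq2 size factors, and in limma with a pseudocount of 0.1 or without the block, 0 of the list were called. GCNT1, another core 2 enzyme, had 1.53 and 1.45, and B4GALT1, a galactosyltransferase, had 0.82 and 1.66. C1GALT1, which makes the core 1 structure, had 0.05 and -0.81.

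Of 13 genes of the release of mucin granules, 11 had enough reads in each line. In A549 cells 3 were past the threshold upward and 0 downward, namely UNC13B (1.42), RAB27A (1.30) and VAMP8 (1.41). The rule named RAB27A for its fold change and UNC13B for this and its reads, and VAMP8 was named after its value was seen. In HCC827 cells 0 were past it in either direction, where UNC13B had 0.80 and RAB27A 0.40. In the fit limma and edgeR called 0 of 11 and DESeq2 1 of 13 with reads, against 593 of 33056 genes that DESeq2 called higher. At an unadjusted p under 0.05, where the share over all genes was not computed, limma had 2 higher and 0 lower. Of 12 partners and sheddases of membrane mucins, 4 of 12 were past the threshold upward in A549 cells, and 2 of 11 upward and 1 downward in HCC827 cells. For both lists the shares over all genes were 14.7% upward and 10.2% downward in A549 cells, and 13.5% and 13.1% in HCC827 cells. MMP7, matrilysin, had 2.83 and 1.68 and was called in the fit (2.25, adjusted p = 0.0227 from limma). It was the 1 of 12 so called, against 1.29% of all genes called higher by limma. In edgeR with DESeq2 size factors, and in limma with a pseudocount of 0.1 or without the block, 0 of these 12 were called. MMP14, a membrane metalloprotease, had 0.44 in A549 and 2.63 in HCC827, the latter from 39 against 10 reads. The sheddases ADAM10 and ADAM17, named outside the rule, had 0.05 and 0.31 in A549 and -0.29 and 0.32 in HCC827. EGFR was the gene past the threshold downward, at -1.17 in HCC827 cells.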

How the data were processed

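RNA of vector and myr-AKT1 cells of A549 and HCC827 was sequenced as strand-specific libraries, 1 per condition. The Methods describe polyA selection, the labels ribosomal RNA depletion. The authors mapped trimmed reads to hg38 with Bowtie2 2.3.5 and counted genes with HTSeq 0.11.2. Bowtie2 does not splice reads, so reads across exon junctions or in mucin repeats may be lost. The largest exon held 27.8% (MUC1) to 61.2% (MUC15) of the annotated exon bases. The strand setting of HTSeq is not given in the sources used here. The Methods name RPKM, but the deposited signal holds reads that the authors scaled with 1 size factor per library, by a tool not given in the sources used here. These factors equal the size factors that DESeq2 computes from the pair of libraries of each line. Normalized counts were thus scaled separately in the lines, also for the limma fit. Dividing by the smallest value gave whole reads, within 0.001, for every gene except 1 in each vector library. Levels across lines use recovered reads scaled to library totals.

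Genes were named from GENCODE release 44, where 297 of 60558 identifiers had no match. Genes under 20 summed reads in a pair were not counted, and a fold against 0 reads was taken against 3 reads. Within a line no p-value was computed. The fit used limma 3.58.1 with a mean-variance trend, Benjamini-Hochberg adjustment and genes kept by filterByExpr of edgeR 4.0.16. It was planned for normalized values, and edgeR and DESeq2 1.42.0 on recovered reads were alternatives. Scripts were tested on simulated data. Other software was R 4.3.3, Python 3.11.15, numpy 2.4.6, pandas 2.3.3, scipy 1.17.1 and matplotlib 3.10.9.

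The mucin genes and lists were chosen with earlier results of these data known. Beside the members, the named genes of each list were the 3 with most reads and, among genes with at least 20 reads in each pair, the 2 highest and 2 lowest by mean log2 fold change. Up to 3 of the nearest protein-coding neighbors within 100 kb with such reads, overlapping genes and copies, AKT1 and EGFR were also named. Defining markers and genes marked as seen first or outside the rule are additions.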

Additional observations from a re-analysis of the deposited data

Results flagged for a closer look

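Of 44 named genes with at least 20 reads in each pair, 13 were higher in one line and lower in the other, each with a counting interval that leaves out 0. These differences were not tested, as there was 1 library per condition. The share over all genes was not computed, so 13 of 44 cannot be set against it. The named genes were also partly chosen for their reads or fold changes. MUC5AC was the 1 mucin gene among them, with 0.82 in A549 and -1.16 in HCC827 cells. Of the secretory factors, SPDEF had 0.37 and -0.91 and FOXA2 0.36 and -0.38. Of the GALNT genes, GALNT1 had 0.81 and -0.30, GALNT10 0.19 and -0.32, and GALNT18 0.41 and -0.84. GALNT9, with few reads, had 3.39 in A549 (24 against 3 reads, 1.67 to 5.77) and -0.73 in HCC827 (24 against 63 reads, -1.47 to -0.03). ST6GALNAC4 had 0.50 and -0.31. RAB3D had -0.20 and 0.50, MARCKS 0.97 and -0.0629, EZR -0.53 and 0.0720, EGFR 0.17 and -1.17, and KRT19 2.65 and -0.75. The signs remained opposite for 12 of the 13 under TMM, total reads and size factors over all 4 libraries, the exception being MARCKS, which was 0.0169 in HCC827 cells with total reads.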

How the results depend on the processing

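With a threshold of log2 fold change 2, the mucin genes past it upward numbered 2 of 6 in A549 cells, against 4, and 3 of 8 in HCC827 cells, against 7, and those downward in HCC827 numbered 0, against 1. TMM, total reads, size factors from the 4 libraries together, a pseudocount of 1 and the other filters on reads left each number past a threshold of 1 within 1.5 times. They were not counted at a threshold of 2. In HCC827 cells MUC13 was 1.997 with TMM, and MUC4 was 2.04 with total reads and 2.01 with size factors over all 4 libraries. No log2 fold change of a mucin gene within a line turned its sign under the 3 scalings or the pseudocount. Size factors over all 4 libraries moved the median of all genes by 0.10 in A549 and 0.05 in HCC827 cells. In the fit over both lines, the number of mucin genes called higher was 3. It was 0 with a pseudocount of 0.1 and 0 without the cell line block, both in limma, where 0 of all 19314 genes were called. At an unadjusted p under 0.05, where the share over all genes was not computed, 5 and 2 mucin genes were higher under these settings. edgeR called 2 mucin genes, with 196 of 19314 genes called higher with TMM and 42 with DESeq2 size factors. DESeq2 called 4, with 593 called higher among 33056 genes with reads. Some of these genes, MUC2 and MUC21 among them, got no adjusted p from DESeq2. MUC4, never called, was 1.56 with edgeR and TMM and 1.57 with edgeR and DESeq2 size factors, and turned from 0.05 to -0.29 with DESeq2's Wald test and to -1.40 with a pseudocount of 0.1, with 0 and 3 reads in A549 cells. MUC5B lost its call with edgeR's quasi-likelihood test, with an adjusted p of 0.0516 with TMM and 0.103 with DESeq2 size factors. MUC16 passed with DESeq2's Wald test (adjusted p = 0.0316) and with limma on every gene that had 1 read or more (adjusted p = 0.0310). The cause was not tested. The labels give no replicate numbers, and the block of the fit pairs the libraries by cell line. Leaving out a library leaves 1 line with a pair and no residual degrees of freedom. Depth limits MUC2, MUC15, MUC20 in A549 and MUC21.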
